A study of Drosophila melanogaster with 18 samples.

Results

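The proteasome genes of *Drosophila melanogaster* were taken as every gene whose symbol is Rpn, Rpt, Prosalpha or Prosbeta followed by a number, including the paralogs whose symbols end in T or R. Of 48 such symbols, 47 had a row among the 15602 genes of the expression table: 7 core alpha, 7 core beta, 10 base and 8 lid genes and 15 paralogs. *Prosalpha4T1* was the symbol without a row and was not analysed here. The mRNAs were measured by RNA-seq of poly(A)+ RNA from S2 cells, an embryonic line of the haemocyte (blood cell) lineage, in cultures that had received no double-stranded RNA. The 2 conditions were HS, in which cultures were brought to heat shock temperature with hot medium and kept there for 30 min, and NHS, the cells before heat shock, with 2 libraries from biological replicates in each. Because these are whole cultures of 1 line, less RNA in every cell and fewer cells that hold an mRNA cannot be told apart.

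The proteasome is the large protease that degrades proteins marked with ubiquitin. Its barrel, the core particle, is a stack of rings in which the alpha subunits form the gated ends and the beta subunits the inner rings, and Prosbeta1, Prosbeta2 and Prosbeta5 carry the caspase-like, trypsin-like and chymotrypsin-like proteolytic sites. The regulatory particle on its ends has a base, where a ring of Rpt ATPases unfolds substrates, and a lid, where the deubiquitinase Rpn11 removes the ubiquitin chain. In flies many subunits have a second gene copy that is known mainly from the testis and male germ line.

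Levels are given as FPKM, fragment numbers divided by transcript length, which allows genes of unequal length to be set side by side within a library. FPKM are also scaled between libraries, by a setting that the sources used here do not give. The FPKM of all genes summed to 923996 and 926922 in the HS libraries, against 831628 and 837852 in the NHS libraries, and from the lowest values of the table the relative depths were 60.1% and 69.3% in HS, against 100% and 77.0% in NHS. The proteasome genes together held 0.408% and 0.356% of the summed FPKM in HS cells, against 0.485% and 0.456% in NHS cells. Both HS shares were below both NHS shares, over totals that were themselves larger in HS. Of 8 haemocyte markers, 7 averaged 1 FPKM or more, while *NimC1* was listed at 0 in both HS libraries and at 0 and 0.0399 FPKM in the NHS libraries. Of the others, *Hml*, *eater*, *crq*, *Pxn* and *He* differed more between replicate numbers than between conditions. Of these, *He* was lower in replicate 2 and the rest were higher there. *Hml* had 4.45 and 20.7 FPKM in HS, against 5.69 and 22.5 FPKM in NHS, and *He* had 5.36 and 1.21 FPKM in HS, against 5.97 and 1.09 FPKM in NHS. The 8 markers summed to 363 and 432 FPKM in HS, against 351 and 448 FPKM in NHS, a sum that was higher in replicate 2 of both conditions, while *srp* as well as *He* was lower there. Whether this difference between the cultures has a part in the proteasome values was not tested.

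All 31 subunit genes other than *Prosalpha1* and the paralogs were abundant mRNAs before and after HS. Their median was 117 and 102 FPKM in the HS libraries, against 125 and 121 FPKM in the NHS libraries, where the median of the 7815 genes that averaged 1 FPKM or more was 21.8 and 21.7 FPKM in HS, against 22.7 and 22.4 FPKM in NHS. The 31 genes lay between percentiles 73.5 and 95.6 of those 7815 genes in every library. The highest of them exceeded the lowest 4.41-fold and 4.26-fold in the HS libraries, against 3.97-fold and 4.01-fold in the NHS libraries. The order of the subunits was much the same in both conditions, with a Spearman rho of 0.96 between mean HS and mean NHS levels across the 31 genes, a description only because all genes share the same 4 libraries.

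**Figure D1:**
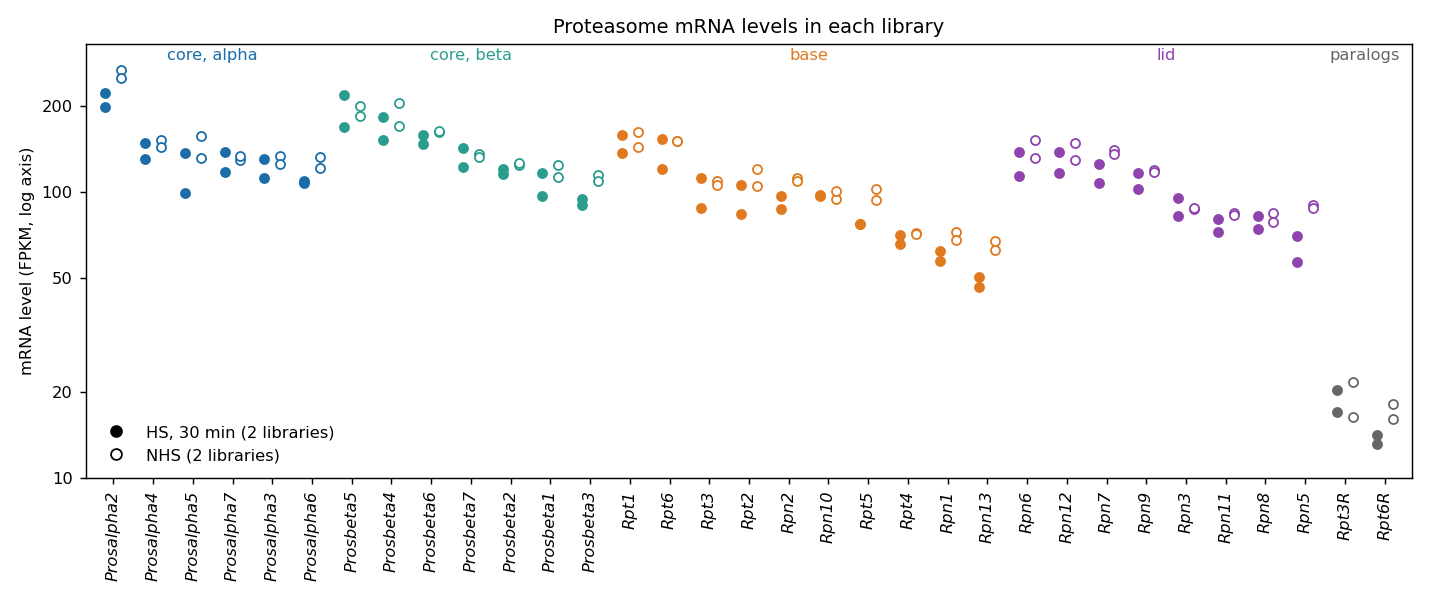
mRNA level of the 33 tested proteasome genes in each library, in FPKM on a log axis, ordered within each class by mean level. Filled points are the 2 HS libraries and open points the 2 NHS libraries; the 31 S2 subunits lie between 46.7 and 267 FPKM, and the paralogs *Rpt3R* and *Rpt6R* between 13.1 and 21.6 FPKM.

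By class median, core mRNAs (13 genes, without *Prosalpha1*) were more abundant than those of the base and the lid, while the class ranges overlapped. The median core gene stood at 138 and 118 FPKM in HS, against 136 and 133 FPKM in NHS. For the base the medians were 97.5 and 85.3 FPKM in HS, against 102 and 104 FPKM in NHS, and for the lid 106 and 92.2 FPKM in HS, against 105 and 103 FPKM in NHS. The ratio of the core median to the base median was 1.42 and 1.38 in HS, against 1.33 and 1.28 in NHS, and that of core to lid was 1.31 and 1.27 in HS, against 1.29 and 1.29 in NHS. The core to base ratio was thus higher in both HS libraries than in both NHS libraries, while the core to lid ratios of the conditions overlapped. No test was made of ratios between classes, whose genes are not replicates of a condition.

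Changes were tested with limma on log2(FPKM + 1) over the 7815 genes, the log2 fold change being the mean of HS minus that of NHS, with its standard error (SE) and a p-value adjusted over all 7815 genes. No proteasome gene passed in this fit, which took condition alone on the deposited scale. Counts at an adjusted p under 0.05 under other fits and scalings are given at the end. Of the 33 that could be tested, 0 were lower and 0 higher at an adjusted p under 0.001, where 0% of all genes tested were lower and 0.128% higher, and 0 were lower and 0 higher at an adjusted p under 0.05, where 1.56% of all genes were lower and 1.75% higher. Their smallest adjusted p was 0.14. At an unadjusted p under 0.05, 6 of the 33 were lower and 0 higher, beside 10.5% of all genes lower and 7.42% higher. The 6 became 0 without the second HS library, 1 without either NHS library and 5 without the first HS library, but in each of these fits 1 library stood for its condition and was assumed to vary like the 2 of the other, so the counts say nothing of stability.

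The estimates nevertheless lay almost entirely on one side. The log2 fold change was below 0 for 32 of the 33 genes, beside 53.4% of all genes tested, and *Rpn3*, a lid scaffold subunit, was the exception at 0.01. This count was 33 with libraries rescaled to equal totals or to ribosomal protein mRNAs, 29 with median scaling and 20 after quantile normalization. The median log2 fold change was -0.13 over the proteasome genes and -0.02 over all genes, and the extremes were -0.49 for *Rpn5* and 0.01 for *Rpn3*. In 15 of the 33 genes both HS libraries were below both NHS libraries, beside 25.6% of all genes, and in 0 both were above, beside 20.5% of all genes; in the other 18 the conditions overlapped. The median SE of the 33 genes was 0.11, close to the size of their median difference, and the 95% interval included 0 for 27 of them.

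**Figure D2:**
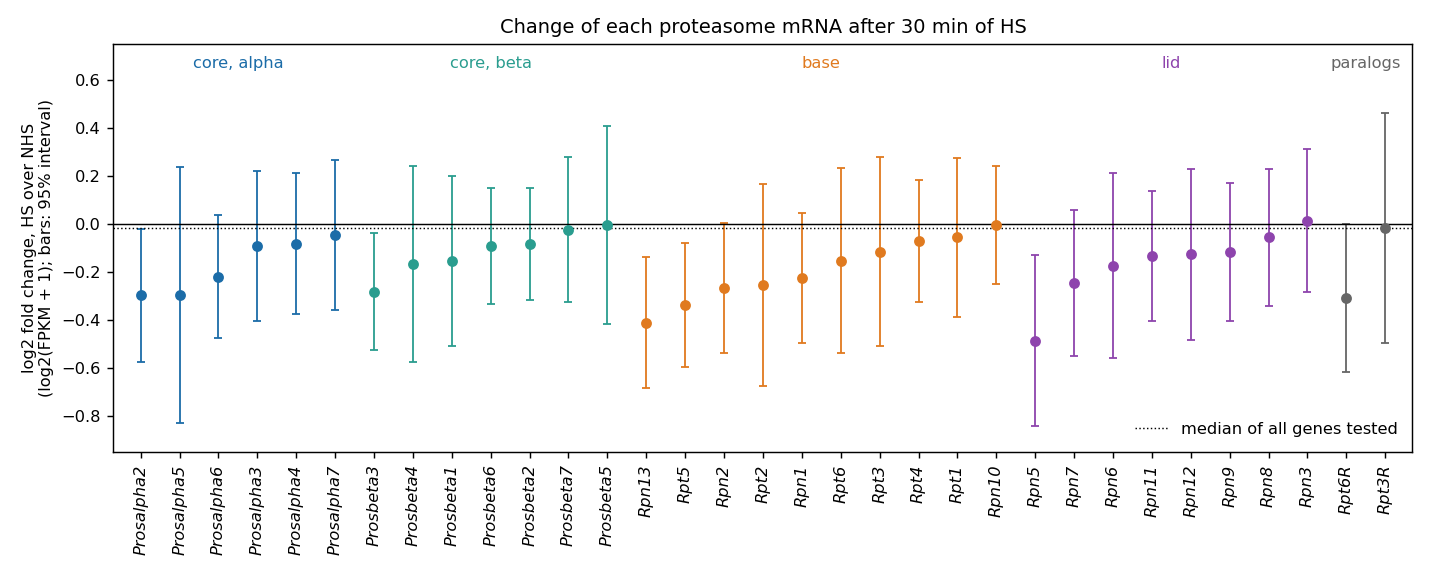
Log2 fold change of each of the 33 tested proteasome genes, HS over NHS, on log2(FPKM + 1), by class; bars are 95% intervals from limma and the dotted line is the median of all 7815 genes tested (-0.02). All points but that of *Rpn3* (0.01) lie below 0. In this fit on condition alone, on the deposited scale, none of the 33 passed an adjusted p under 0.05.

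**Figure D3:**
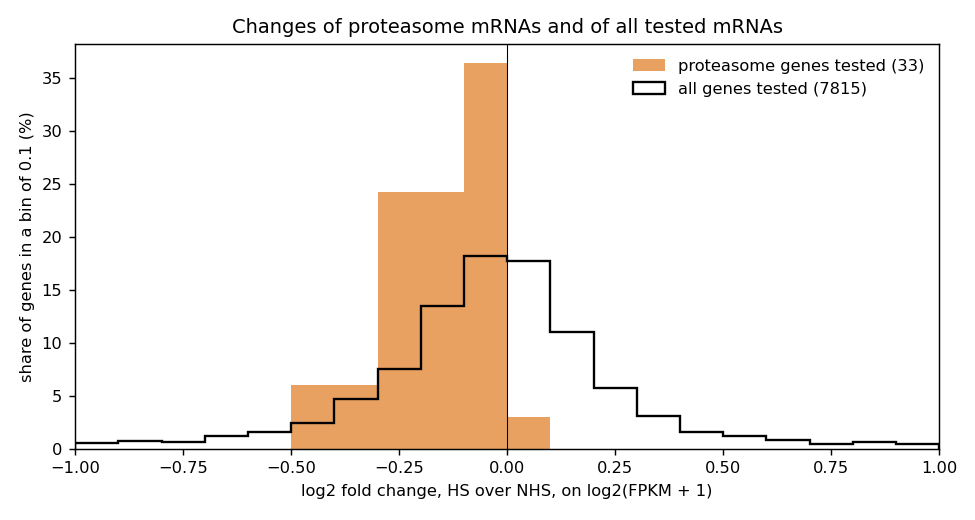
Share of genes in each 0.1-wide bin of log2 fold change, HS over NHS, for the 33 tested proteasome genes (filled) and all 7815 genes tested (line). The proteasome genes fill the range -0.49 to 0.01; 6.36% of all genes lie outside the plotted range of -1 to 1.

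The size of this shift depended on which HS library was used. The second HS library was the lowest of the 4 for 27 of the 33 genes (81.8%), beside 29.4% of all genes tested, and the first NHS library was the highest for 21 (63.6%), beside 24.5% of all genes. The second HS library was below the first for 28 of the 33 genes, with a median log2 difference of -0.19, beside 50.8% of all genes and a median of -0.01. Between the replicates of NHS the second was below the first for 25 genes, with a median log2 difference of -0.05, beside 48.9% of all genes. Equal replicate numbers are not stated to mark a shared culture. Within replicate number 1, HS was below NHS in 25 of 33 genes with a median log2 difference of -0.09, beside 52.8% of all genes. Within replicate number 2 it was below in all 33, with a median of -0.20, beside 53.3% of all genes. Across numbers, the first HS library was below the second NHS library in 17 of 33 genes (median -0.0064), beside 52.4% of all genes. The second HS library was below the first NHS library in 31 of 33 (median -0.27), beside 52.2% of all genes. Leaving out the second HS library brought the median log2 fold change of the 33 genes to -0.04, with 22 below 0, beside a median of -0.02 over all genes, and the class medians to -0.03 (alpha), -0.03 (beta), -0.05 (base) and -0.03 (lid). Without the first HS library the median was -0.24, with 32 below 0. The median gap between the 2 HS libraries was thus larger in size than the median difference between the conditions. In both conditions the second library was below the first for most of the 33 genes. Whether the shift goes with the second HS library alone or with a difference shared by both second libraries was not tested.

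**Figure D4:**
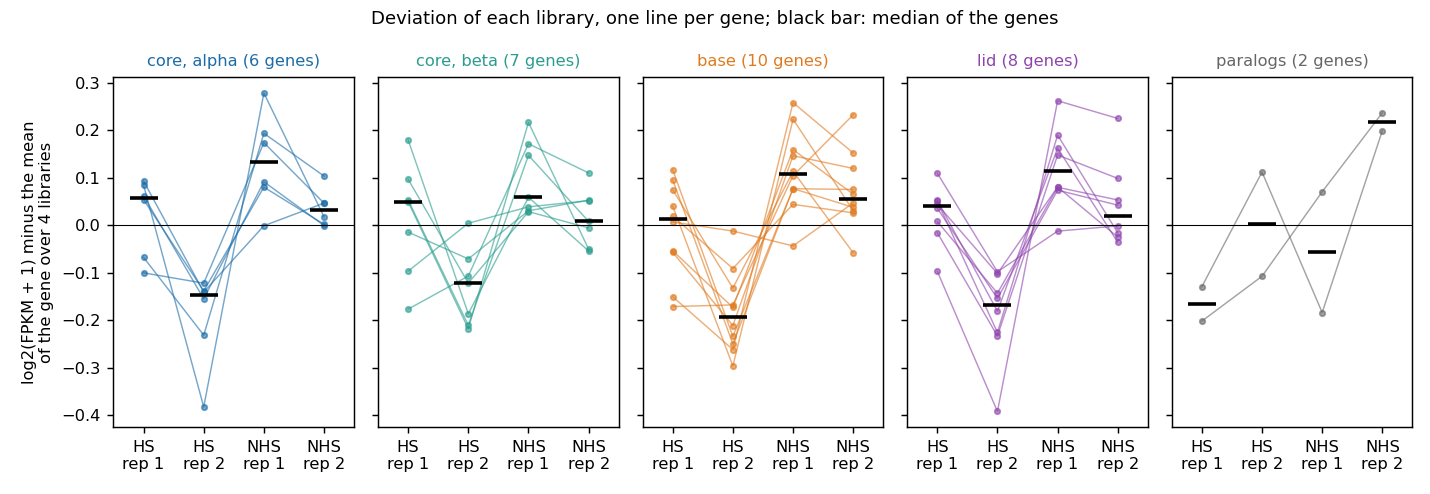
Deviation of each library from the gene's own mean over the 4 libraries, in log2(FPKM + 1), one line per gene and one panel per class, with the median of the genes as a black bar. The second HS library is the lowest point for all 6 alpha and all 8 lid genes, for 5 of 7 beta and 8 of 10 base genes, and for 0 of the 2 paralogs.

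The alpha subunits form the outer rings whose tails close the entry to the barrel. All 6 tested alpha genes had a log2 fold change below 0, with a median of -0.16. In 2 of them (33.3%) both HS libraries were below both NHS libraries, which is near the 25.6% of all genes. *Prosalpha2*, the most abundant of the 33, had 223 and 199 FPKM in HS, against 267 and 251 FPKM in NHS. Both HS values were below both NHS values, and the log2 fold change of -0.30 (SE 0.10) had an adjusted p of 0.25. *Prosalpha6*, the least abundant of the 6, had 109 and 108 FPKM in HS, against 132 and 121 FPKM in NHS. Its conditions were also apart, with both HS values close together and a log2 fold change of -0.22 (SE 0.096, adjusted p = 0.34). *Prosalpha5* had 137 and 99.2 FPKM in HS, against 157 and 131 FPKM in NHS. The first HS value was above the second NHS value, the HS replicates were the farthest apart of any alpha gene, and the log2 fold change of -0.30 carried the largest SE of all 33 genes, 0.20 (adjusted p = 0.57).

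The other 3 alpha genes differed less between conditions than between the HS replicates. *Prosalpha3*, whose yeast counterpart holds the gate shut, had 131 and 112 FPKM in HS, against 134 and 125 FPKM in NHS. *Prosalpha4* had 149 and 130.3 FPKM in HS, against 152 and 144 FPKM in NHS, and *Prosalpha7* had 138 and 118 FPKM in HS, against 129.6 and 134 FPKM in NHS. In each of the 3 the second HS library was lowest and the first HS library lay within or above the NHS values, with log2 fold changes from -0.09 to -0.05. *Prosalpha1*, the remaining alpha subunit, was listed at 0.122 FPKM and 0 in HS and at 0 in both NHS libraries, and its paralog *Prosalpha1R*, on the same strand of the same chromosome arm with 1 protein-coding gene between them, was listed at 0 in all 4. A core particle needs every alpha subunit, so these zeros are uncertain and neither gene was read as silent. How fragments shared by the copies were counted was not tested.

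The beta subunits line the chamber, and 3 of them do the cutting. All 7 beta genes were tested, all 7 log2 fold changes were below 0 with a median of -0.09, the value nearest 0 of the 4 classes. In 3 (42.9%) both HS libraries were below both NHS libraries, beside 25.6% of all genes. *Prosbeta3*, a structural subunit and the least abundant beta mRNA, had 89.8 and 94.3 FPKM in HS, against 115 and 109.8 FPKM in NHS. The conditions were apart, here with the first HS library as the lower one, and the log2 fold change was -0.28 (SE 0.091, adjusted p = 0.22). *Prosbeta4*, a structural subunit, had 183 and 152 FPKM in HS, against 206 and 171 FPKM in NHS, and *Prosbeta6*, another, had 148 and 159 FPKM in HS, against 162 and 164 FPKM in NHS. *Prosbeta4* overlapped between conditions (log2 fold change -0.17, adjusted p = 0.69), and *Prosbeta6* did not (log2 fold change -0.09, adjusted p = 0.71). *Prosbeta7*, which closes the beta ring, had 142 and 122 FPKM in HS, against 136 and 133 FPKM in NHS, with the NHS values between those of HS.

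The genes of the catalytic subunits showed small differences. *Prosbeta1*, the caspase-like site, had 117 and 96.9 FPKM in HS, against 124 and 113 FPKM in NHS. *Prosbeta2*, the trypsin-like site, had 121 and 116 FPKM in HS, against 125 and 127 FPKM in NHS. *Prosbeta5*, the chymotrypsin-like site and the most abundant beta mRNA, had 218 and 169 FPKM in HS, against 201 and 185 FPKM in NHS. *Prosbeta2* was the one of these with both HS values below both NHS values, *Prosbeta1* overlapped, and for *Prosbeta5* the HS values enclosed the NHS values. Log2 fold changes were -0.16 for *Prosbeta1* (95% interval -0.51 to 0.20, adjusted p = 0.66) and -0.08 for *Prosbeta2* (-0.32 to 0.15, adjusted p = 0.73). For *Prosbeta5* it was -0.01 (-0.42 to 0.41, adjusted p = 0.99), and its direction turned without the second HS or the first NHS library and with median or quantile scaling.

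The base had the largest median difference of the 4 classes, -0.19 over 10 genes, all below 0. In 5 (50%) both HS libraries were below both NHS libraries, beside 25.6% of all genes. Its 4 genes that are not ATPases had a median of -0.25, with 3 of them below without overlap, and its 6 ATPase genes a median of -0.13, with 2 (33.3%) below without overlap. *Rpn13* (FBgn0033886), a ubiquitin receptor that also holds the deubiquitinase Uch-L5, was the least abundant S2 subunit, with 50.5 and 46.7 FPKM in HS, against 67.4 and 62.6 FPKM in NHS. Both HS values were below both NHS values, and the log2 fold change of -0.41 (SE 0.10) had the smallest adjusted p of the 33 genes, 0.14, or 0.0499 with libraries scaled to ribosomal protein mRNAs. Its mean FPKM differed by -25.2% in HS relative to NHS. *Rpn2*, the scaffold on which Rpn13 sits, had 96.9 and 87.0 FPKM in HS, against 112 and 109.7 FPKM in NHS, again without overlap, and with -0.27 on the log2 scale (SE 0.10, adjusted p = 0.28). *Rpn1*, a scaffold that docks ubiquitin receptors and itself binds ubiquitin, had 62.4 and 57.4 FPKM in HS, against 72.5 and 67.9 FPKM in NHS, without overlap, and a log2 fold change of -0.23 (adjusted p = 0.36). *Rpn10*, the ubiquitin receptor at the join of base and lid, differed from these, with 98.1 and 96.8 FPKM in HS, against 94.7 and 101 FPKM in NHS. The HS values lay between the NHS values, and the log2 fold change was -0.0044 (95% interval -0.25 to 0.24), with a direction that turned under median and quantile scaling and without the second HS or the second NHS library. The 3 ubiquitin receptors thus included both ends of the range of the base.

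Among the ATPases that thread substrates into the core, *Rpt5* (FBgn0028684) had the largest difference, with 77.1 and 77.3 FPKM in HS, against 93.5 and 102 FPKM in NHS. The HS values nearly coincided and lay below both NHS values, and the log2 fold change of -0.34 (SE 0.097) had an adjusted p of 0.18. *Rpt2* had 106 and 83.7 FPKM in HS, against 120.4 and 105 FPKM in NHS, overlapping by less than 1 FPKM, with a log2 fold change of -0.25 (SE 0.16, adjusted p = 0.53). *Rpt4* had 70.9 and 65.7 FPKM in HS, against 72.2 and 71.3 FPKM in NHS, not overlapping but with a log2 fold change of only -0.07 (adjusted p = 0.80). In *Rpt3* and *Rpt6* the first HS library was the highest of the 4 and the second the lowest. *Rpt3* had 112 and 87.9 FPKM in HS, against 109 and 106 FPKM in NHS, and *Rpt6* had 153 and 120.2 FPKM in HS, against 151 and 151 FPKM in NHS. *Rpt1*, the most abundant base mRNA, had 158 and 137 FPKM in HS, against 163 and 144 FPKM in NHS, with overlap and a log2 fold change of -0.06 (adjusted p = 0.89) that turned without the second HS or the first NHS library and with quantile scaling. *Rpt1* overlaps *CG17985* on the same strand in the annotation, so some of its fragments could come from that gene.

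In the lid, 7 of 8 genes had a log2 fold change below 0 and the median was -0.13. In 4 (50%) both HS libraries were below both NHS libraries, beside 25.6% of all genes. *Rpn5* (FBgn0028690), a scaffold subunit that contacts Rpn11 and its partner Rpn8, had the largest difference of all proteasome genes, with 70.2 and 57.0 FPKM in HS, against 90.3 and 88.0 FPKM in NHS. The NHS values were close together and both above the HS values, of which the second was the lower. The log2 fold change was -0.49 (SE 0.13, adjusted p = 0.17), with a difference in mean FPKM of -28.6%, and it ranged from -0.64 to -0.34 with 1 library left out. *Rpn7*, another scaffold subunit, had 126 and 108 FPKM in HS, against 141 and 136 FPKM in NHS, without overlap and with a log2 fold change of -0.25 (SE 0.11, adjusted p = 0.37). *Rpn6*, which clamps the lid to the alpha ring and was the most abundant lid mRNA, had 138 and 114 FPKM in HS, against 152 and 132 FPKM in NHS, overlapping, with a log2 fold change of -0.17 (adjusted p = 0.65).

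*Rpn11*, the deubiquitinase, had 80.4 and 72.3 FPKM in HS, against 84.6 and 83.0 FPKM in NHS. The conditions were apart by a small margin, with a log2 fold change of -0.13 (95% interval -0.40 to 0.14, adjusted p = 0.61). *Rpn8*, which pairs with Rpn11, had 82.2 and 74.2 FPKM in HS, against 84.3 and 78.3 FPKM in NHS, with overlap. *Rpn9* had 117 and 102 FPKM in HS, against 119.8 and 117 FPKM in NHS, without overlap, and *Rpn12* had 138 and 117 FPKM in HS, against 149 and 129.6 FPKM in NHS, with overlap; both are scaffold subunits. *Rpn3* had 95.2 and 82.3 FPKM in HS, against 87.4 and 88.1 FPKM in NHS, so that the HS values enclosed the NHS values. Log2 fold changes were -0.06 for *Rpn8*, -0.12 for *Rpn9*, -0.13 for *Rpn12* and 0.01 for *Rpn3*, with adjusted p from 0.69 to 0.98.

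The sums over each class repeat this by amount of mRNA. The 6 tested alpha genes summed to 888 and 766 FPKM in HS, against 972 and 906 FPKM in NHS, and the 7 beta genes to 1019 and 909 FPKM in HS, against 1068 and 1002 FPKM in NHS. The base summed to 985 and 859 FPKM in HS, against 1055 and 1021 FPKM in NHS, and the lid to 846 and 727 FPKM in HS, against 908 and 852 FPKM in NHS. The alpha, base and lid sums of both HS libraries were below both NHS sums, the lid by a narrow margin, and the beta sums overlapped. The mean sum of all 31 genes was 3500 ± 337 FPKM in HS and 3892 ± 157 FPKM in NHS (SD, n = 2 each), a difference of -10.1%, with -11.9% for alpha, -6.88% for beta, -11.1% for the base and -10.6% for the lid. With 2 libraries against 2, these sums were not tested.

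Across the 31 genes the log2 fold change had a Spearman rho of 0.21 with the mean level and of -0.07 with the length of the longest annotated transcript. Both are given as a description over genes that share the same libraries. By chromosome arm the median log2 fold change was -0.27 for the 9 genes on 3R, -0.15 for the 4 on 2L, -0.10 for the 4 on X, and -0.09 for the 9 on 2R and the 5 on 3L. No test was made between arms.

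Most of the paralogs were listed at 0 in S2 cells, a value that in this table does not by itself show that an mRNA is absent, since *Prosalpha1* was listed at or near 0 too. Of the 15 with a row, 11 were listed at 0 in all 4 libraries: *Prosalpha1R*, *Prosalpha3T*, *Prosalpha4T2*, *Prosalpha6T*, *Prosbeta4R1*, *Prosbeta4R2*, *Prosbeta5R1*, *Prosbeta5R2*, *Rpn12R*, *Rpn13R* and *Rpt4R*. *Prosbeta2R1* was listed at 0.113 FPKM and 0 in HS and at 0 in both NHS libraries. *Prosbeta2R2* had 0.271 and 0.393 FPKM in HS, against 0.109 and 0.424 FPKM in NHS, or between 0.0873% and 0.337% of its summed level with *Prosbeta2*. These were the copies of the trypsin-like catalytic subunit, and neither reached a mean of 1 FPKM.

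The 2 exceptions were copies of base ATPases. *Rpt3R* (FBgn0037742) had 17.0 and 20.3 FPKM in HS, against 16.3 and 21.6 FPKM in NHS. Replicate 2 was the higher in both conditions and the conditions overlapped, with a log2 fold change of -0.02 (95% interval -0.50 to 0.46, adjusted p = 0.98) that turned without the first HS or the second NHS library and with median or quantile scaling. It made up 13.1% and 18.7% of the summed FPKM of *Rpt3* and *Rpt3R* in HS, against 13.0% and 16.9% in NHS. *Rpt6R* (FBgn0039788) had 13.1 and 14.1 FPKM in HS, against 16.0 and 18.1 FPKM in NHS. Both HS values were below both NHS values, with a log2 fold change of -0.31 (SE 0.11, adjusted p = 0.28). Its share of the summed FPKM of *Rpt6* and *Rpt6R* was 7.90% and 10.5% in HS, against 9.61% and 10.7% in NHS, and these shares overlapped. In both of these paralogs replicate 2 was the higher within each condition, the opposite of most S2 subunits, so the second HS library was the lowest for neither.

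Germ line genes gave little signal beside them. Of 12 testis and germ line markers 10 had a row, 5 were listed at 0 in all 4 libraries, and the 10 summed to 4.16 and 3.69 FPKM in HS, against 1.86 and 1.99 FPKM in NHS. The 1 marker that averaged 1 FPKM or more was *bam*, a germ cell differentiation factor, with 2.50 and 1.77 FPKM in HS, against 0.941 and 1.02 FPKM in NHS (log2 fold change 0.65, adjusted p = 0.25). The sums were higher in both HS libraries, whereas the sum of *Rpt3R* and *Rpt6R* was 30.1 and 34.3 FPKM in HS, against 32.4 and 39.7 FPKM in NHS.

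The regulators and partners of the proteasome were followed in a separate list of 17 genes, of which 15 had a row, 1 of these was listed at 0 in all 4 libraries, and 14 were tested. In the fit on condition alone, on the deposited scale, 0 of the 14 passed an adjusted p under 0.05 in either direction. At an unadjusted p under 0.05, 2 were lower and 0 higher, beside 10.5% of all genes lower and 7.42% higher. Their median log2 fold change was -0.12, with 10 below 0 and 4 above, and in 9 both HS libraries were below both NHS libraries, with 1 the other way, beside 25.6% and 20.5% of all genes. The second HS library was the lowest for 6 of the 14 (42.9%), beside 29.4% of all genes.

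The 3 regulators with the largest differences, named for that, are all known to carry ubiquitin-marked proteins to the proteasome. *Rad23* had 88.2 and 97.1 FPKM in HS, against 117 and 126 FPKM in NHS, without overlap, and a log2 fold change of -0.39 (SE 0.10, adjusted p = 0.16). In *Rad23* the first HS library was the lower one. *rngo*, the fly Ddi1 shuttle protein, had 23.0 and 22.9 FPKM in HS, against 29.9 and 28.2 FPKM in NHS, with both HS values nearly equal and a log2 fold change of -0.33 (SE 0.095, adjusted p = 0.19). *Ubqn*, the fly ubiquilin, had 83.0 and 67.8 FPKM in HS, against 101 and 83.2 FPKM in NHS, apart by a narrow margin, with a log2 fold change of -0.28 (SE 0.16, adjusted p = 0.49). *REG*, the activator that caps the core in place of the regulatory particle in the nucleus, was the most abundant of the list, with 288 and 239 FPKM in HS, against 268 and 237 FPKM in NHS. The first library was the higher in both conditions, and the log2 fold change of 0.06 (adjusted p = 0.90) turned with libraries rescaled to equal totals or to ribosomal protein mRNAs and without the first HS or the second NHS library.

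Of the other genes listed for substrate delivery, *Ufd1* had 33.7 and 32.9 FPKM in HS, against 38.4 and 40.0 FPKM in NHS, and *Npl4* had 29.0 and 29.9 FPKM in HS, against 28.8 and 31.6 FPKM in NHS, both being cofactors of the segregase that extracts marked proteins. *Ufd1* was lower without overlap (log2 fold change -0.23, adjusted p = 0.31), and *Npl4* overlapped (log2 fold change -0.036, adjusted p = 0.92). Among the remaining regulators, chosen here for their roles, *Pomp*, the chaperone of core assembly, had 76.8 and 64.8 FPKM in HS, against 86.2 and 77.0 FPKM in NHS. The deubiquitinases *Usp14* and *Uch-L5*, which act on the regulatory particle, had log2 fold changes of -0.15 and -0.12. *cnc*, whose mammalian relative Nrf1 turns on proteasome genes when the proteasome is impaired, had 18.1 and 19.3 FPKM in HS, against 20.1 and 21.0 FPKM in NHS, and its partner *maf-S* had 91.0 and 88.0 FPKM in HS, against 87.4 and 90.6 FPKM in NHS. In *Pomp* and *cnc* both HS values were below both NHS values, by small margins, and in *maf-S* the conditions overlapped, with adjusted p of 0.54, 0.61 and 0.98 for the 3 genes.

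**Figure D5:**
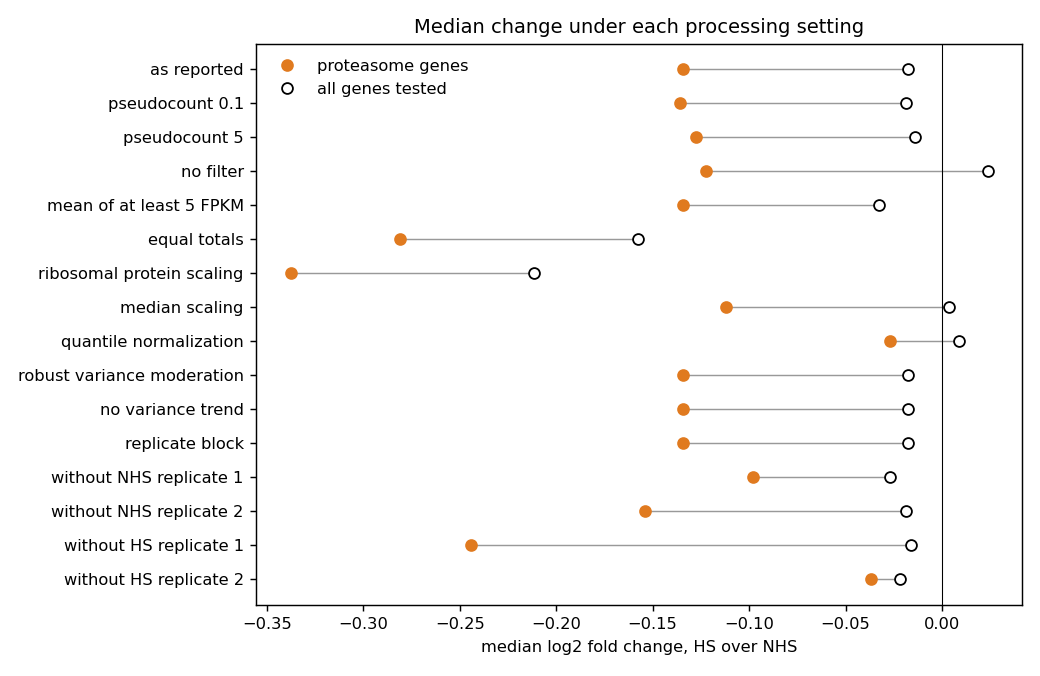
Median log2 fold change, HS over NHS, of the proteasome genes (filled) and of all genes tested (open) under each way of processing the FPKM. Rescaling to equal totals or to ribosomal protein mRNAs moves both points down together (proteasome -0.28 and -0.34, all genes -0.16 and -0.21), while without the second HS library or after quantile normalization the points are close (-0.04 and -0.02 without that library, -0.03 and 0.01 after quantile normalization).

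Rescaling to equal totals or to ribosomal protein mRNAs moved the values of the proteasome genes and of all genes together. Quantile normalization brought their medians closer. On the deposited scale 76 ribosomal protein genes, long-lived abundant mRNAs, had a median log2 fold change of 0.18, with 1 below 0. Rescaled to equal totals, the proteasome median was -0.28 beside -0.16 over all genes, and rescaled to the ribosomal protein mRNAs it was -0.34 beside -0.21. Relative to the median of all genes it was -0.12 as deposited, -0.12 with equal totals, -0.13 with ribosomal protein scaling, and -0.036 after quantile normalization, where 20 of the 33 genes were below 0; with median scaling 29 were. FPKM are relative within a library, so they do not show a loss or gain shared by every mRNA.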

How the data were processed

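RNA-seq of poly(A)+ RNA from S2 cells was analysed for 2 conditions with 2 libraries each (4 libraries). Conditions come from the sample labels and replicate numbers from the column names, with 0 columns of values left unmapped. The PRO-seq samples were not analysed here. The authors clipped adapters with fastx_clipper, aligned strand-specific reads to dm3 with TopHat2 and deposited FPKM per gene made with Cuffnorm, whose scaling setting the sources used here do not give. The submitters' processing notes give TopHat2, Cuffnorm and dm3 without versions. The read counts that the authors tested with DESeq2 were not used here, so the depth in reads is unknown and the relative depths were estimated from low FPKM values, which here were 0.15 FPKM or less.

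Symbols were matched by FlyBase identifier for 14924 of 15602 genes. Chromosome arm, strand, length and overlap came from an annotation of the BDGP6 assembly, which is not the authors' build, so no coordinates are given. The 7815 genes that averaged 1 FPKM or more were tested on log2(FPKM + 1) with limma 3.58.1 in R 4.3.3 (lmFit on condition alone, eBayes with a variance trend, Benjamini-Hochberg adjustment over all 7815). Genes were called at an adjusted p under 0.001, the level the study used, with counts at an adjusted and an unadjusted p under 0.05 beside it. The scripts were tested on simulated data. FPKM of low genes are understated in fold by the pseudocount of 1. The SE and p-values rest on the spread between the 2 biological replicates of each condition, drawn toward a variance trend fitted over all 7815 genes. They do not measure a gene's own replicate spread alone.

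The proteasome genes and the lists of regulators, haemocyte markers and testis and germ line markers were chosen with earlier results of these data known. Genes were named by rule (in each class the 3 largest changes and the most and least abundant gene; catalytic subunits, ubiquitin receptors, Rpn11, paralogs above 0; of the regulators the 3 largest changes and the most abundant gene); the other subunits and regulators are described for completeness, with their values seen. Listed genes without a row (*Sem1*, *TER94*, *vas*, *nos*) were not analysed here. Alternatives were pseudocounts of 0.1 and 5, no filter or a mean of 5 FPKM or more, 4 other scalings of the libraries, 2 other variance settings, a replicate block, and leaving out the libraries one by one. Promoter motifs and protein identity of the paralogs were planned but not analysed here, and no sequences are shown. Descriptions and figures used matplotlib 3.10.9, scipy 1.17.1, pandas 2.3.3 and numpy 2.4.6 in Python 3.11.15.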

Additional observations from a re-analysis of the deposited data

How the results depend on the processing

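With 2 libraries a condition, a difference of the size seen here lies near the replicate spread, and depth in reads is unknown. No proteasome gene passed an adjusted p under 0.001 under any alternative. Pseudocounts of 0.1 and 5, both filters and both variance settings moved no count of proteasome genes by over 1.5 times and turned no named gene. The alpha median with *Prosalpha1* and *Prosalpha1R* summed, which stay under the filter, and the base median without *Rpn10* and *Rpn13*, its highest and lowest values, could not move. The cause of the shifts below was not tested.

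With libraries rescaled to equal totals, 11 proteasome genes were lower at an unadjusted p under 0.05 in place of 6. Of all 7815 genes, 1548 were lower at that level in place of 817. The median log2 fold change was -0.28 over all proteasome genes, -0.30 for alpha, -0.24 for beta, -0.34 for the base and -0.28 for the lid. The log2 ratios of summed FPKM were -0.33, -0.25, -0.32 and -0.31 for the 4 classes in that order, and *REG* turned to -0.092. *Rpn3* turned too, so that all 33 tested proteasome genes were below 0. With ribosomal protein scaling 17 proteasome genes were lower at an unadjusted p under 0.05, beside 2006 of all 7815 genes. At an adjusted p under 0.05, 1 was lower (*Rpn13*, 0.0499), beside 351 of all genes. The medians in this setting were -0.34, -0.36, -0.30, -0.39 and -0.33. The ratios of sums were -0.39, -0.31, -0.38 and -0.37, with -0.36 for the paralogs, and *REG* stood at -0.15. With median scaling *Prosbeta5* turned to 0.017, *Rpn10* to 0.018 and *Rpt3R* to 0.0050. After quantile normalization 2 proteasome genes were lower at an unadjusted p under 0.05, beside 724 of all 7815 genes. A log2 fold change below 0 was seen for 20, and the median over all proteasome genes was -0.027. The ratios of sums were -0.00054 for beta and -0.061 for the base. Of the genes named by rule, 5 turned with this scaling: *Prosbeta5* (0.10), *Rpt1* (0.038), *Prosbeta2* (0.020), *Rpn10* (0.12) and *Rpt3R* (0.022). Other proteasome genes turned too, since 20 were below 0 in place of 32.

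With each library left out in turn, and the lone library assumed to vary like the other condition, 0 to 5 genes were lower at an unadjusted p under 0.05, and 22 to 32 log2 fold changes were below 0, the fewest without HS replicate 2. Medians ranged from -0.24 to -0.037 over all proteasome genes, -0.22 to -0.025 for alpha, -0.19 to -0.033 for beta, -0.31 to -0.051 for the base and -0.23 to -0.029 for the lid, the end nearest 0 being without HS replicate 2. The ratios of sums ranged from -0.29 to -0.081 for alpha, -0.19 to -0.023 for beta, -0.27 to -0.075 for the base, -0.28 to -0.057 for the lid and -0.30 to 0.0058 for the paralogs. Genes named by rule that turned ranged from -0.19 to 0.18 (*Prosbeta5*), -0.16 to 0.047 (*Rpt1*), -0.050 to 0.041 (*Rpn10*), -0.21 to 0.18 (*Rpt3R*) and -0.077 to 0.19 (*REG*). Of the other subunits, *Rpn3*, *Rpn8*, *Rpt3*, *Rpt6*, *Prosalpha3*, *Prosalpha4*, *Prosalpha7* and *Prosbeta7* also turned when some library was left out.

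The sources do not say that equal replicate numbers mark shared cultures. Deviations of same-numbered libraries had a correlation of 0.22 over all 7815 genes and 0.70 over the 33 proteasome genes, from 2 pairs only. With a replicate block in the fit, 14 proteasome genes were lower at an unadjusted p under 0.05, beside 1405 of all 7815 genes. At an adjusted p under 0.05, 3 were lower (*Rpn13* at 0.032, *Rpn5* at 0.045 and *Prosalpha2* at 0.048). Of the regulators named by rule, *Rad23* was also lower with the block, at an adjusted p of 0.032. All genes lower at an adjusted p under 0.05 numbered 582 of 7815, in place of 122. Over all genes, 10 or fewer were lower at that level without NHS replicate 1 or without either HS library. Promoter motifs and protein identity were not run.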
